A study of Mus musculus with 6 samples.

Results

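A cluster of miRNA genes on the mouse X chromosome, Mir532, Mir188, Mir362, Mir501 and Mir500, was examined in the pancreas of mice with induced acute pancreatitis and of mice given saline. Of 9 mature arms listed by name, 8 were among the 1414 rows of the count table: mmu-miR-532-5p, mmu-miR-532-3p, mmu-miR-188-5p, mmu-miR-362-5p, mmu-miR-362-3p, mmu-miR-501-5p, mmu-miR-501-3p and mmu-miR-500-3p. The ninth, mmu-miR-660-5p, was not analysed here. The arms were chosen by name and by the read counts of these same 6 libraries, model against control, so the differences between groups given below are a description and carry no test. Of the 8 arms, 7 passed the filter on low counts that left 499 tested rows, and miR-501-5p did not.

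The model group consisted of 3 libraries, numbered 56, 57 and 59, from the pancreas of C57BL/6 mice given caerulein with lipopolysaccharide (LPS). Caerulein is a cholecystokinin analogue that overstimulates acinar cells, and LPS is a bacterial cell wall component. The control group consisted of 3 libraries, numbered 43, 44 and 45, from C57BL/6 mice given saline. Per the labels, mice of both groups weighed 22 to 25 g and received 7 intraperitoneal injections at intervals of 1 hour, with caerulein at a stated 50 mg/kg in the model group and LPS added to its last injection. Tissue was taken 24 hours after the start. Since neither agent was given by itself, the effects of caerulein and LPS cannot be told apart, and the labels do not say whether each library came from its own mouse. The spread between libraries may therefore be partly technical.

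A miRNA is cut from a hairpin in a longer transcript by Drosha and then by Dicer, which leaves a 5p and a 3p arm. One of them is usually loaded into an Argonaute protein and kept while its partner is degraded, and bases 2 to 8 of the loaded arm, the seed, do most of the pairing with target mRNAs. Hairpins of a cluster can be cut from one transcript, yet each arm is then processed and degraded at its own rate. Clcn5, the host gene of the cluster, encodes an endosomal chloride and proton exchanger that is best known from the kidney, where its human counterpart is mutated in Dent disease.

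In GRCm38 the 5 hairpins lay within 10815 bases of chromosome X on the minus strand. In the direction of transcription they followed each other as Mir532 (chrX:7248402-7248497), Mir188 (chrX:7247989-7248056), Mir362 (chrX:7241982-7242046), Mir501 (chrX:7241243-7241351) and Mir500 (chrX:7237683-7237774). All lay inside Clcn5 (chrX:7153810-7319358, minus strand) in the GENCODE mouse release M21 annotation, within 3 of its 5 transcripts and overlapping no exon of it. Mir532 and Mir188 were separated by 345 bases, Mir362 and Mir501 by 630 bases, and the pairs stood 5942 bases apart.

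RefSeq entries for build GRCm38.p6 matched 7 of the 9 listed arms, and each matched sequence was identical to that in the count table. The mature sequences are shown because some arms share a seed or begin alike, and the seed is in capitals. The arms miR-501-3p and miR-500-3p had one seed, AUGCACC, and differed at 4 of 22 positions. Counted from the 5′ end, with the base of miR-501-3p first, these were C9U, A18G, U21C and G22A.
miR-501-3p: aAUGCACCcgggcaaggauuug
miR-500-3p: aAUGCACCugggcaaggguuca

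The 5p arms of Mir362, Mir501 and Mir500 began alike, and the seed of miR-362-5p was also that of miR-500-5p, an arm outside the listed members. Within the cluster, miR-501-5p and miR-188-5p each had a seed of its own.
miR-362-5p: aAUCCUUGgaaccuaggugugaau
miR-500-5p: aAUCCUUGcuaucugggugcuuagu
miR-501-5p: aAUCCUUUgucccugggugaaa
miR-188-5p: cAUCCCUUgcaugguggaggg

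The remaining arms also had seeds of their own within the cluster. That of miR-362-3p was shared outside it by miR-329-3p and by 1 predicted row of the table, while the sequence of miR-532-3p came nearest to that of miR-188-3p, the other arm of the neighbouring hairpin.
miR-362-3p: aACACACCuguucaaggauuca
miR-532-3p: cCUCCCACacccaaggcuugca
miR-188-3p: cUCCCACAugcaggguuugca

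The hairpins of miR-501 and miR-500 are printed to show how alike the sister genes are around their mature arms, which are in capitals.
Mir501 hairpin: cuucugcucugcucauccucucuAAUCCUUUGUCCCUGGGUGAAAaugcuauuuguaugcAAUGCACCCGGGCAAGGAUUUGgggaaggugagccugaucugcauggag
Mir500 hairpin: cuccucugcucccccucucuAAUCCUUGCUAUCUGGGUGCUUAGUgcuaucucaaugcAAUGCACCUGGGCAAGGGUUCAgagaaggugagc

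Total miRNA counts per library ran from 2489009 to 3006220 in the model group and from 1943693 to 2629801 in the control group. Levels are given as CPM, in which each library is brought to the same total with TMM factors, and whether ligation of adapters favoured one arm over another was not tested. Over all 499 rows, edgeR's quasi-likelihood test called 5 rows higher and 1 lower in the model group at an adjusted p under 0.05, none of them in the cluster. Pancreas markers were present in every library, with summed acinar markers (4 of 4 found) at 27898 to 30623 CPM in model and 33756 to 49591 CPM in control libraries. Of the 4 acinar markers, 3 lay lower in every model library than in any control library. Of 5 leukocyte markers, 3 lay higher in every model library than in any control library. Summed leukocyte markers overlapped, at 5329 to 11459 CPM in model and 4588 to 6861 CPM in control libraries, and no marker of either list was at 0. Summed islet markers (2 of 2 found) stood at 38814 to 52059 CPM in model and 58792 to 80777 CPM in control libraries, and summed endothelial markers (2 of 2 found) at 32192 to 37849 CPM in model and 40543 to 47660 CPM in control libraries, with no marker at 0. In each of these lists 1 marker lay lower in every model library than in any control library. Over all 499 tested rows, 14.4% lay higher and 16.6% lower in this way. The part of a changed mix of cells in the values below was not tested, and in whole tissue fewer cells of a type and less miRNA per cell cannot be told apart.

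The most abundant arm of the cluster, miR-532-5p, was nearly missing from 1 library of each group. This arm, which represses RUNX3 in human melanoma cells, had 34, 11885 and 11418 counts in model libraries 56, 57 and 59, against 28, 8016 and 4994 counts in control libraries 43, 44 and 45. As levels these were 12.6, 3643 and 3411 CPM in the model group and 10.8, 3899.7 and 2993 CPM in the control group. Model library 56 thus lay 280 times below the mean of the other model libraries, and control library 43 lay 320 times below the mean of the other controls. The authors' deposited RPM values have the same pattern, with 1.40, 539 and 470 RPM in model and 1.00, 294 and 184 RPM in control libraries.

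No other tested row varied as much within both groups. The range of miR-532-5p on the log2 CPM scale was 8.09 over the model and 8.40 over the control libraries, where the median tested row had 0.59 and 0.68. Within the model group alone, miR-202-5p and miR-744-5p came near it at 7.81 and 7.71, against 1.77 and 1.00 over the control libraries. Only 6 of 499 tested rows spanned more than 10-fold in both groups, and miR-532-3p was another of them. Those outside the cluster were miR-297c-5p, miR-669c-5p and 2 predicted rows, all with a mean of under 20 CPM, against 2328 CPM for miR-532-5p. In sequence, the nearest rows of the table to miR-532-5p were 8 edits away.

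**Figure D1:**
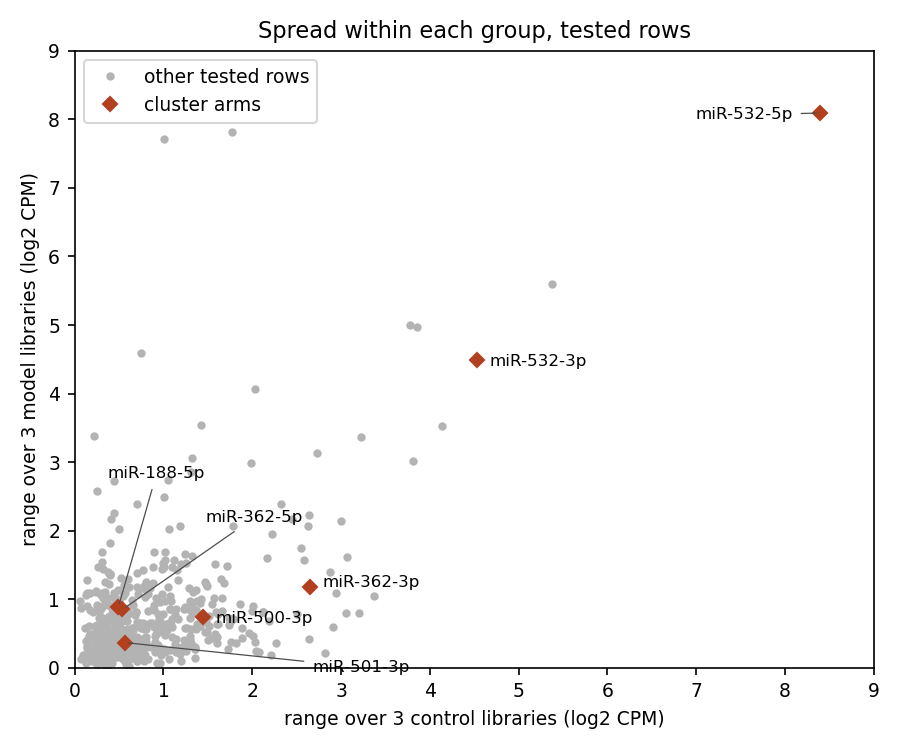
Each point is 1 tested row of the table, placed by its range (highest minus lowest log2 CPM) over the 3 control libraries on the x axis and over the 3 model libraries on the y axis, with cluster arms as diamonds. The arm miR-532-5p stands alone at the top right, at 8.40 and 8.09, while miR-501-3p, miR-188-5p and miR-362-5p lie among most other rows.

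None of the other 7 arms had a drop of this size in both libraries. In model library 56, miR-362-5p, miR-362-3p and miR-500-3p were the lowest of the model group, at 1.68, 1.91 and 1.54 times below the mean of the other model libraries. In the same library, miR-501-3p had 1747 counts and miR-188-5p had 131, the highest miR-188-5p count of the 6 libraries. In control library 43, miR-501-3p had 1042 counts (401 CPM, against 461 CPM in control library 45). In the same library miR-362-5p had 107 counts (41.2 CPM, against 45.5 CPM in control library 45). In control library 43, the partner arm miR-532-3p had 0 counts. With all 6 libraries the log2 fold change of miR-532-5p, model over control, was 0.03 with an SE of 2.04. Without control library 43 and model library 56, a choice made after the values were seen, its mean was 3527 CPM in model and 3446 CPM in control libraries (n = 2 each), with a log2 fold change of 0.17 (SE 0.24). The groups overlapped either way.

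The 3p arm of the same hairpin, miR-532-3p, was scarce and also uneven, with log2 ranges of 4.50 over the model and 4.53 over the control libraries. The control libraries stood in the same order for both arms of the hairpin, and the model libraries did not. Its counts were 82, 186 and 6 in model libraries 56, 57 and 59, against 0, 35 and 5 in control libraries 43, 44 and 45. Scaled levels were 30.4, 57.02 and 1.79 CPM in model and 0, 17.0 and 3.00 CPM in control libraries, where a count of 0 in library 43 allows up to 1.15 CPM (3 counts, counting error only). High values thus came from model libraries 56 and 57 and control library 44, and the groups overlapped. The fitted log2 fold change was 2.16 with an SE of 1.42, and it ran from 1.32 to 4.48 when 1 library was left out.

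The second gene of the transcript gave miR-188-5p, an arm that targets Nrp2 in rat neurons. Its counts were 131, 116 and 87 in model libraries 56, 57 and 59, against 39, 44 and 26 in control libraries 43, 44 and 45. Scaled, these were 48.5, 35.6 and 26.0 CPM in model and 15.0, 21.4 and 15.6 CPM in control libraries, so each model library lay above each control. Means were 36.7 ± 11.3 CPM in model and 17.3 ± 3.54 CPM in control libraries (SD, n = 3 each), a log2 fold change of 1.08 (SE 0.33). It had the largest log2 fold change among the 5 tested arms outside the miR-532 hairpin. Its sign held in all 14 alternatives, with values of 0.81 to 1.84. These refit the same counts, and without overlap leaving out a library could hardly turn the sign, so nothing is read from that.

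Next along the transcript, Mir362 gave a 5p arm that represses the deubiquitinase CYLD in human liver cancer cells. The counts of miR-362-5p were 95, 209 and 182 in model libraries 56, 57 and 59, against 107, 64 and 76 in control libraries 43, 44 and 45. Levels were 35.2, 64.1 and 54.4 CPM in model and 41.2, 31.1 and 45.5 CPM in control libraries. Model libraries 57 and 59 lay above every control, and model library 56 lay below controls 43 and 45. Means of 51.2 ± 14.7 CPM in model and 39.3 ± 7.39 CPM in control libraries (SD, n = 3 each) gave a log2 fold change of 0.38 (SE 0.30).

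Its 3p arm, miR-362-3p, was several times scarcer. It had 16, 27 and 48 counts in model libraries 56, 57 and 59, against 26, 2 and 17 counts in control libraries 43, 44 and 45. Control library 44 was the low one, at 0.97 CPM, while the other libraries ran from 5.93 to 14.3 CPM in model and from 10.0 to 10.2 CPM in control. With an overlap of groups, the log2 fold change was 0.44 (SE 0.72), and it was -0.09 without control library 44. The Dlk1-Dio3 miRNA miR-329-3p, which has the same seed, stood at 134 ± 38.1 CPM in model and 174 ± 75.1 CPM in control libraries (SD, n = 3 each).

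The fourth gene gave miR-501-3p, the second most abundant arm of the cluster and one that represses a glutamate receptor subunit in rat neurons. Counts were 1747, 1634 and 1985 in model libraries 56, 57 and 59, against 1042, 642 and 770 in control libraries 43, 44 and 45. Levels of 647, 501 and 593 CPM in model libraries all lay above the 401, 312 and 461 CPM of control libraries. Means were 580 ± 73.9 CPM in model and 392 ± 75.0 CPM in control libraries (SD, n = 3 each), with a log2 fold change of 0.57 (SE 0.24). It kept its sign in all 14 alternatives (0.29 to 1.35), from which again nothing is read, since the groups did not overlap. The 5p arm of the same hairpin, miR-501-5p, had 8, 3 and 11 counts in model and 5, 4 and 7 counts in control libraries, too few to compare at this depth.

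The last gene gave miR-500-3p, the sister of miR-501-3p with the same seed. It had 346, 590 and 720 counts in model libraries 56, 57 and 59, against 408, 218 and 486 counts in control libraries 43, 44 and 45. Scaled levels were 128, 181 and 215 CPM in model and 157, 106.1 and 291 CPM in control libraries. The control group held both the highest and the lowest value, so the groups overlapped throughout. Means were 175 ± 43.8 CPM in model and 185 ± 95.7 CPM in control libraries (SD, n = 3 each). The log2 fold change was -0.08 (SE 0.40), and its sign turned under 5 of 14 alternatives, which among scalings were total counts alone (0.24) and the authors' library totals (0.80).

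**Figure D2:**
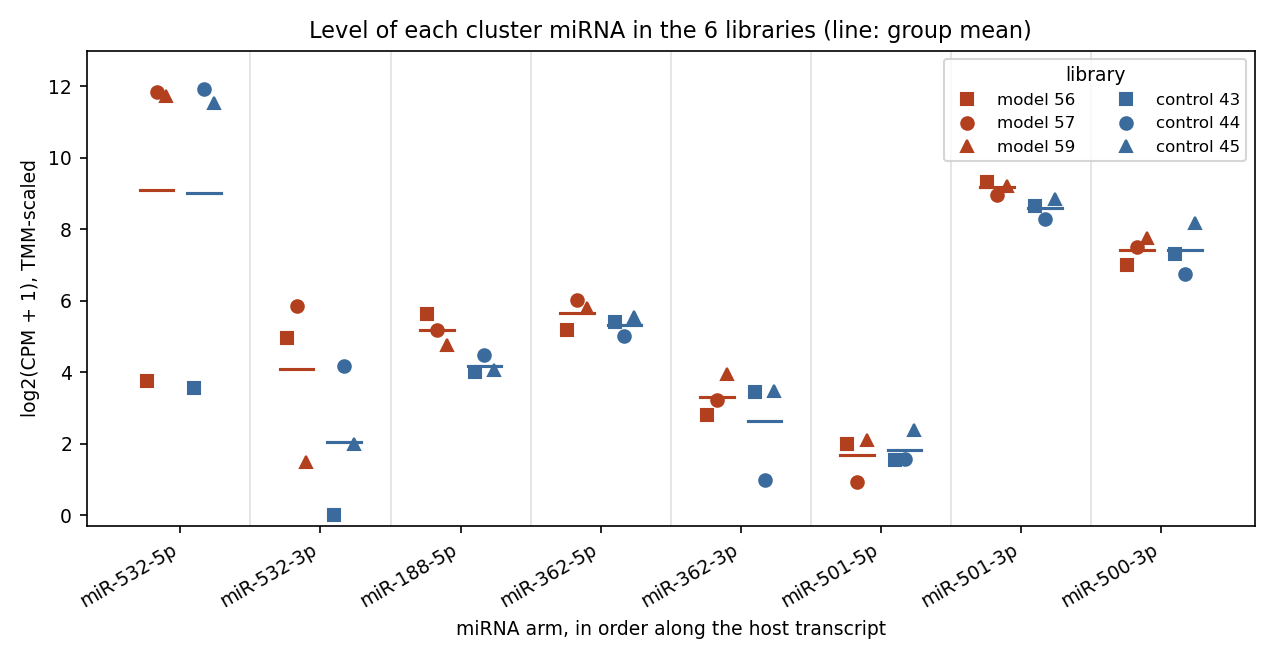
TMM-scaled level of the 8 arms as log2(CPM + 1) on the y axis, with arms in order along the host transcript on the x axis. Model libraries are left and control libraries right within each arm, symbols tell libraries apart without pairing them, and lines are group means of the plotted values. For miR-188-5p and miR-501-3p every model point lies above every control point, and for miR-532-5p the points of model 56 and control 43 lie far below the rest.

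Because miR-501-3p and miR-500-3p have a seed in common and neighbouring genes, their ratio within a library was computed, which needs no scaling between libraries. There were 19.8, 36.1 and 36.3 reads of miR-500-3p per 100 of miR-501-3p in model libraries 56, 57 and 59, against 39.2, 34.0 and 63.1 in control libraries 43, 44 and 45. Means were 30.7 ± 9.46 in model and 45.4 ± 15.6 in control libraries (SD, n = 3 each), and the groups overlapped because control 44 lay below model libraries 57 and 59. The arms differ at 4 of 22 bases, and whether reads of one were counted for the other was not tested. For miR-362-5p per 100 of miR-501-3p, the ratio was 5.44, 12.8 and 9.17 in model libraries and a nearly constant 10.3, 9.97 and 9.87 in control libraries.

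Levels ordered the arms in much the same way in both groups once miR-532-5p was set aside. In every library miR-501-3p came first and miR-500-3p second among the other 7 arms. Of the counts left without miR-532-5p, miR-501-3p took 65.5% ± 6.47 in model and 61.1% ± 4.81 in control libraries, and miR-500-3p took 19.8% ± 4.90 in model and 27.2% ± 6.97 in control libraries (SD, n = 3 each). The share of miR-362-5p was 5.82% ± 1.83 in model and 6.13% ± 0.578 in control libraries. That of miR-188-5p was 4.15% ± 1.27 in model and 2.88% ± 1.31 in control libraries. For each of these 4 shares the groups overlapped.

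As a whole the cluster took 0.0988%, 0.487% and 0.501% of all counts in model libraries 56, 57 and 59, against 0.0629%, 0.379% and 0.328% in control libraries 43, 44 and 45. The widest 95% Wilson interval of these shares ran from 0.493% to 0.509%, in model library 59, and it overlapped that of model library 57, which ran from 0.480% to 0.495%. Without model library 56 and control library 43, the mean share was 0.494% in model and 0.354% in control libraries (n = 2 each). Nearly all of the spread came from miR-532-5p, which held 1.38%, 81.1% and 79.0% of the cluster's counts in the model libraries and 1.69%, 88.8% and 78.3% in the control libraries. Without it, a choice made after the values were seen, the shares of all counts were 0.0974%, 0.0920% and 0.105% in model libraries. In control libraries they were 0.0619%, 0.0424% and 0.0714%, with each model library above each control. The means of these last shares were 0.0982% ± 0.00672 in model and 0.0585% ± 0.0148 in control libraries (SD, n = 3 each). They rest on total counts without the TMM factors, which were 1.08 to 1.16 in model and 0.86 to 0.99 in control libraries. Scaling with those factors would narrow the gap, and whether the groups would then overlap was not tested. Total counts alone moved the median row by 0.30 on the log2 scale, towards the model group.

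**Figure D3:**
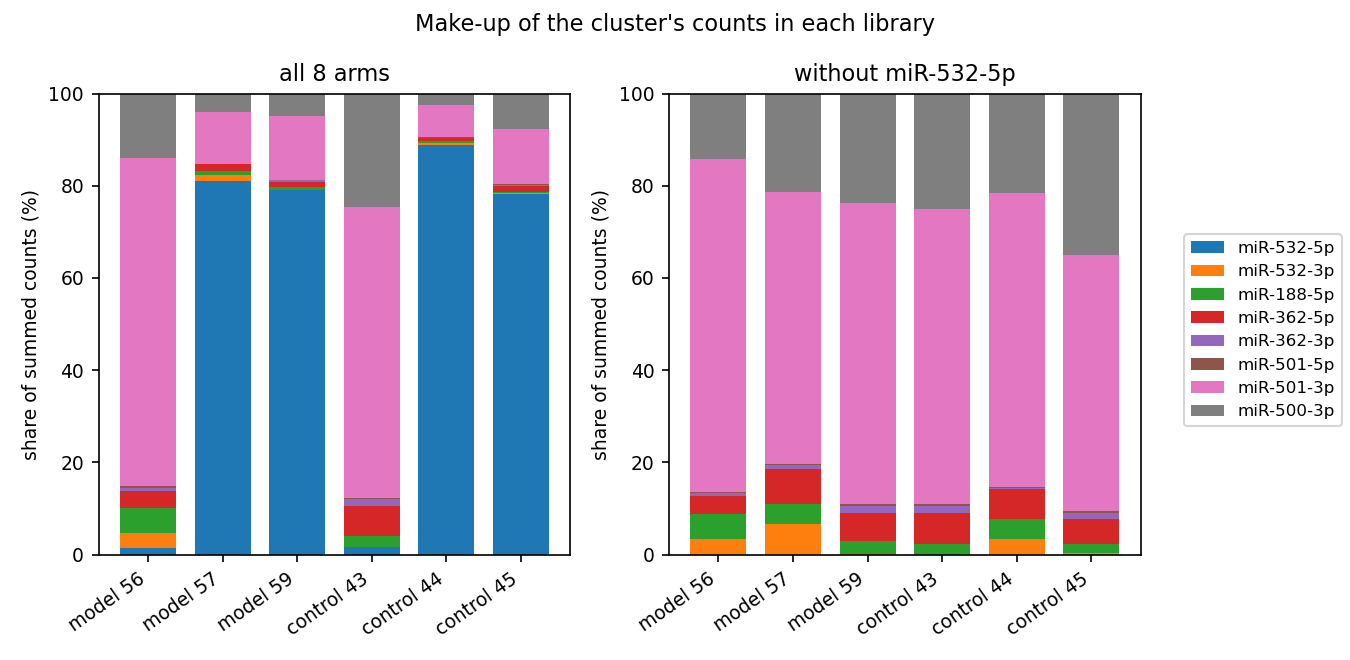
Each bar is 1 library, model libraries first, and its colours give each arm's share (%) of the cluster's summed counts, on the left with all 8 arms and on the right without miR-532-5p. On the left miR-532-5p fills 78.3% to 88.8% of 4 libraries and under 2% of model 56 and control 43, while on the right miR-501-3p holds 55.5% to 72.0% of every library.

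The hairpins differed in which arm was kept, and 4 of the 5 had the same arm ahead in all 6 libraries. Over all libraries, miR-501-3p outnumbered miR-501-5p 206 times and miR-500-3p outnumbered miR-500-5p 106.5 times. In contrast, miR-188-5p outnumbered miR-188-3p by 12.3 times and miR-362-5p outnumbered miR-362-3p by 5.39 times. The sister genes Mir501 and Mir500 were thus both read almost wholly from the 3p side.

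Arm ratios, as log2 of 5p over 3p with 1 count added to each, overlapped between groups for miR-362, miR-501 and miR-500. They were 2.44 ± 0.51 in model and 2.84 ± 1.38 in control libraries for miR-362, and -7.88 ± 0.70 in model and -7.01 ± 0.43 in control libraries for miR-501 (SD, n = 3 each). For miR-188 the ratio was 3.64 ± 0.09 in model and 2.99 ± 0.60 in control libraries (SD, n = 3 each) without overlap, with 2 to 9 counts of miR-188-3p per library behind it. That separation depends on the added count. As raw counts, control library 44, with 44 reads of miR-188-5p to 3 of miR-188-3p, had a higher ratio than every model library. The miR-532 hairpin had no stable ratio. Its values were -1.25, 5.99 and 10.67 in model libraries 56, 57 and 59, against 4.86, 7.80 and 9.70 in control libraries 43, 44 and 45, and in model 56 alone the 3p arm outnumbered the 5p arm.

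**Figure D4:**
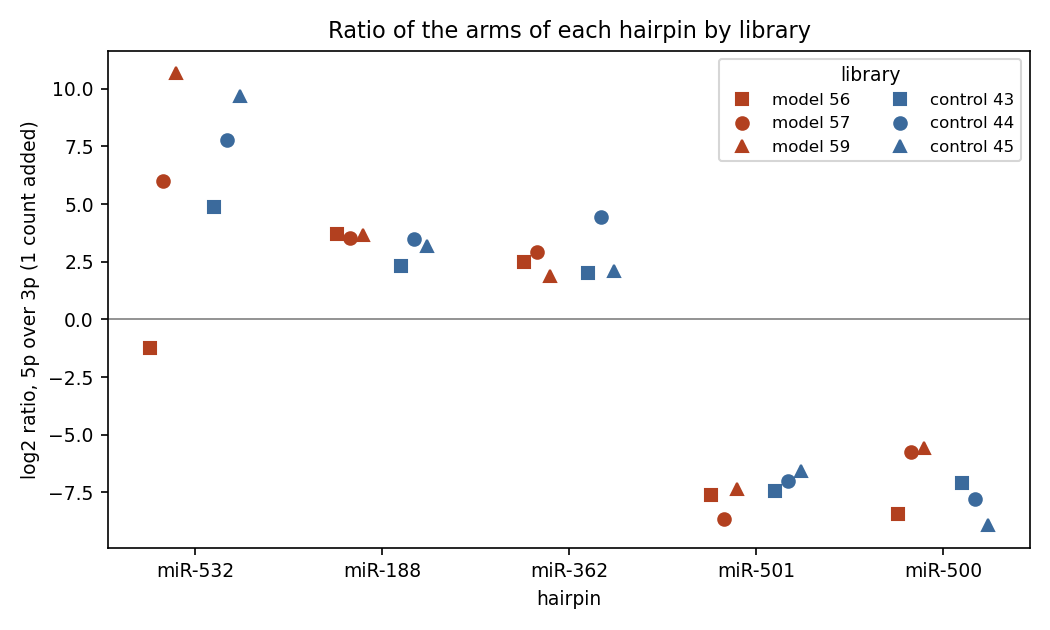
The log2 ratio of 5p to 3p counts (1 count added to each) is on the y axis for each hairpin and library, with model libraries left of control libraries and symbols that tell libraries apart without pairing them. Values above 0 mean more 5p reads. Points of miR-501 and miR-500 lie below -5, those of miR-188 and miR-362 lie above 1, and those of miR-532 run from -1.25 to 10.67.

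Set against all rows, 0 of the 7 tested arms were called by edgeR at an adjusted p under 0.05, where 1.2% of 499 rows were called (1.0% higher and 0.2% lower in the model group). At an unadjusted p under 0.05, edgeR's test took 2 arms, miR-188-5p and miR-501-3p, both higher, where 11.4% of rows were higher and 12.4% lower at that level. DESeq2 called 0 arms, where it called 7.65% of rows. Groups did not overlap, with model above, in 2 of the 7 arms and in 14.4% of rows. The median log2 fold change was 0.44 over the 7 arms, 6 of them positive, and 0.0050 over all tested rows, where 50.3% were positive. These counts belong to the contrast with which the arms were chosen, so nothing is read from them.

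**Figure D5:**
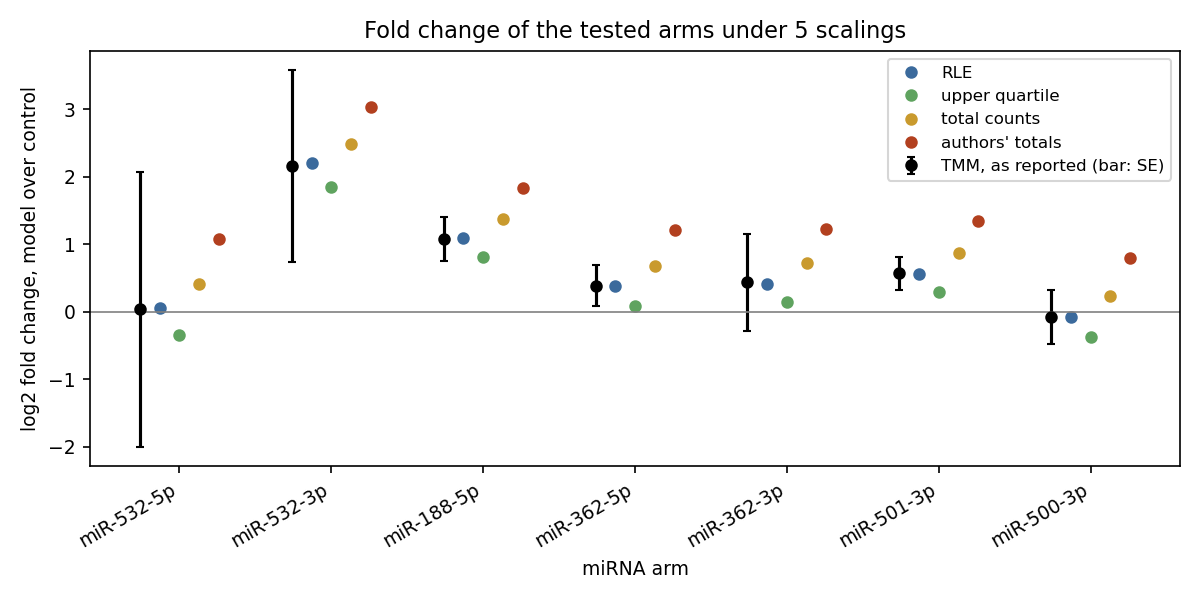
The y axis gives the log2 fold change, model over control, of the 7 tested arms on the x axis, with black points for TMM scaling (bars are 1 SE) and coloured points for 4 other scalings. Points of miR-532-3p, miR-188-5p, miR-362-5p, miR-362-3p and miR-501-3p lie above 0 under all 5 scalings. The arms miR-500-3p and miR-532-5p have points on both sides of 0, and the bar of miR-532-5p spans 2.04 in either direction.

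Scaling decided how many arms passed. With the library totals used for the authors' deposited RPM values, which move the median of all rows by 0.79 on the log2 scale, 3 arms passed in edgeR's fit (miR-188-5p, miR-362-5p and miR-501-3p, at log2 fold changes of 1.84, 1.21 and 1.35), where 24.1% of rows were called higher. Total counts alone and upper quartile factors moved the median by 0.30 and -0.29 and called 0 arms each.

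Other lists set beside the cluster had similar medians. Of 84 other known rows on chromosome X, 31 were tested, 1 was called higher and 0 lower, with a median log2 fold change of 0.31. The X-linked cluster from miR-322 to miR-450 is part of that list, with 7 of 13 arms tested, 0 called and a median of 0.42. The intronic cluster of miR-106b, miR-93 and miR-25 had 4 of 6 tested, 0 called and a median of 0.36. At an unadjusted p under 0.05, edgeR took 8 rows higher and 1 lower in the first list, and 2 and 1 in the others, all higher. Over all tested rows, 11.4% were higher and 12.4% lower at that level. DESeq2 called 3, 1 and 0 rows of these lists, where it called 7.65% of all rows. The other arms of the cluster's own hairpins, miR-188-3p and miR-500-5p, had 2 to 9 and 0 to 14 counts per library and were not tested, and miR-660-3p was not analysed here.

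Similarity of profiles was measured as the root mean square difference of log2 CPM over the 6 libraries, with each row centred on its own mean. Among the 21 pairs of tested arms, the likest were miR-362-5p and miR-500-3p at 0.36, miR-362-5p and miR-501-3p at 0.37, and miR-188-5p and miR-501-3p at 0.45. The arms of the miR-532 hairpin were 3.92 apart, and the 11 pairs with either of them were the 11 least alike, at 1.77 or more. Without control library 43 and model library 56, again chosen after the values were seen, the arms of the miR-532 hairpin were 1.71 apart. Over those 4 libraries miR-532-5p stood 0.36 from miR-188-5p and 0.43 from miR-501-3p, and the least alike pairs were those with miR-532-3p. Against the mean profile of the 7 tested arms over all 6 libraries, the likest known rows outside the cluster were miR-674-3p (0.45), miR-132-3p (0.46), miR-1964-3p (0.48), miR-186-5p (0.50) and miR-210-5p (0.50), where the median row had 0.83. Without both miR-532 arms, an alternative chosen after the values were seen, the likest were miR-19a-3p (0.17), miR-339-3p (0.22), miR-101a-5p (0.22), miR-6546-3p (0.22) and miR-145a-5p (0.23), where the median row had 0.58. With all 7 tested arms but without control library 43 and model library 56, they were miR-222-3p (0.10), miR-466c-5p (0.12), miR-666-3p (0.13), miR-467c-5p (0.14) and miR-140-3p (0.15), where the median row had 0.54, so the likest rows differ with each choice.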

How the data were processed

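Small RNA was sequenced from pancreas in 6 libraries, 3 per group, with groups read from the sample titles. Per the labels' protocols, gel-purified RNA of 18 to 30 nt was ligated to 3′ adapters with unique molecular identifiers (UMIs). The authors deposited 1 table with whole-number read counts per mature arm, not normalized, and RPM values. From rows of at least 100 counts, the totals behind the RPM values were 22055639 to 27876715 per library. Neither what those totals hold nor any use of the UMIs in counting is given in the sources used here. Intervals and floors therefore cover counting error only. The submitters' processing notes name Bowtie2 and GRCm38.p6 without a role.

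Counts were fitted with edgeR 4.0.16 in R 4.3.3 over all rows kept by filterByExpr (minimum count 10, minimum total 15), with TMM factors, robust dispersions, the two-sided quasi-likelihood test and Benjamini-Hochberg adjustment at 0.05. The procedure was tested on simulated data with the same dispersion for every row, which does not cover rows as uneven as miR-532-5p. DESeq2 1.42.0, 4 other scalings, no filter, dropping repeated sequences and leaving out each library were alternatives. Each SE of a log2 fold change is the absolute log2 fold change divided by the square root of the quasi-likelihood F statistic. The log2 CPM values carry a prior count of 2. Named were all arms of the cluster and the 5 likest rows. Members and lists were chosen with earlier results of these data known. The replicate numbers of the groups do not overlap.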

Additional observations from a re-analysis of the deposited data

How the results depend on the processing

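Over all rows, edgeR called 5 higher and 1 lower. Other settings gave 17 higher with total counts alone, 121 higher and 2 lower with the authors' totals, 8 lower with RLE factors, 39 lower with upper quartile factors, 23 higher and 35 lower with no filter, and 19 in each direction with DESeq2. Leaving out 1 library gave 3 to 5 higher and 0 to 5 lower, with 87 to 119 rows at an unadjusted p under 0.05. Without control 43 and model 56 together, a choice made after seeing the data, edgeR called 3 higher and 0 lower, with 82 rows at that unadjusted level. Of the cluster's arms, 0 passed in edgeR or DESeq2 under every setting except the authors' totals, where 3 passed. The median log2 fold change of the arms was 1.23 with the authors' totals, 0.14 with upper quartile factors, 0.37 to 0.68 without 1 library and 0.75 without control 43 and model 56. For these changes the cause was not tested. The mean share of counts held by the cluster was 0.106 percentage points higher in the model group, and 0.0088 to 0.238 without 1 library, lowest without control 43 and highest without model 56. It was 0.0363 without model 59, 0.0432 without model 57, 0.167 without control 44 and 0.141 without control 45. It was also 0.141 without control 43 and model 56 together and 0.0397 without miR-532-5p, each chosen after the values were seen. Signs turned for miR-532-5p in 4, miR-500-3p in 5 and miR-362-3p in 1 of 14 alternatives, and for the other 4 tested arms in 0. For miR-188-5p and miR-501-3p, whose groups did not overlap, leaving out a library could hardly turn the sign. No paired analysis was possible because the groups share no replicate number. Depth limits miR-501-5p, miR-188-3p and miR-500-5p, at 0 to 14 counts per library.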
